A study of Arabidopsis thaliana with 48 samples.

Results

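Floral MADS-box identity genes encode the transcription factors that tell the organs of a flower what to become, and 10 of them were followed here in Arabidopsis thaliana seedlings. The members are AP1, CAL, FUL, AP3, PI, AG, SEP1, SEP2, SEP3 and SEP4, taken by gene identifier from the transcript table, which lists 33553 genes in all. RNA from whole seedlings of the Col-0 ecotype was compared between the wild type (WT) and acc1-5, with 3 libraries of each genotype. Both genotypes were grown with a day of 16 h and a night of 8 h and had the same labelled age of 12 days. acc1-5 is an allele of ACC1, the gene of the cytosolic acetyl-CoA carboxylase, which turns acetyl-CoA into malonyl-CoA. By its title, the series asks how acetyl-CoA of the cytosol bears on histone acetylation. The labels repeat 1 text on spraying with estradiol or solvent for all samples, so whether the seedlings for RNA were sprayed is not clear from them. They record neither leaf number nor the state of the shoot apex.

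In the ABC model of the flower, class A genes act in sepals and petals, class B genes in petals and stamens, and class C genes in stamens and carpels, while class E proteins join the others in complexes that bind DNA. AP1 and CAL also give young floral meristems their identity, and FUL, a close relative of both, acts in the inflorescence meristem and the fruit. In vegetative tissue these genes are known as targets of Polycomb repression, and several come on when the shoot apex turns from making leaves to making flowers. AP1, CAL and FUL are grouped below as the AP1 clade, with class A.

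The tables hold 1 level per genotype in FPKM (fragments scaled to the length of the transcript and to the number mapped), with a lower and an upper bound of the authors. Values of single libraries were not used here, so no spread between libraries can be given, and no label tells whether those libraries were grown apart. A gene is represented by its transcript of highest mean FPKM. "Fell" and "rose" are written only where the q-value of the authors' comparison was under 0.05. In whole seedlings, fewer cells of a type and less RNA per cell cannot be told apart. The level of ACC1 itself was 33.1 FPKM in WT, with bounds of 21.6 to 44.7, against 33.4 in acc1-5, with 21.4 to 45.4. Leaf and root markers were both present, and they differed between the genotypes. All 4 root hair markers were higher in acc1-5, with a summed level of 9.88 FPKM in WT and 90.6 in acc1-5, as were all 5 root endodermis markers, with 9.39 and 40.8. Of 4 leaf photosynthesis markers, 3 fell and all 4 had a lower level in acc1-5. The sum of the 4 was 12098 FPKM in WT and 6397 in acc1-5. Most of that sum is RBCS1A, the 1 that did not pass the test, and its bounds are very wide. It had 9403 FPKM in WT (0.165 to 28301) and 5028 in acc1-5 (245 to 9816.5). No marker of these 3 lists was at 0 in either genotype. The part of tissue proportions in the results below was not tested.

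Of the 10 floral MADS-box genes, 9 had a lower level in acc1-5 than in WT. AP1, FUL, AP3, PI and SEP2 fell, none rose, SEP1, SEP3, SEP4 and AG did not pass the test, and CAL was not tested by the authors' program. Among all 20509 tested genes, 10394 had a lower level in acc1-5, 9.04% fell and 10.9% rose. Their median log2 fold change (acc1-5 over WT) was -0.01, against -1.87 over the 9 tested members. Levels of the tested members averaged 0.983 to 10.0 FPKM over both genotypes, and of the 7458 genes within that range 5.99% fell. Both the AP1 clade and class B fell in every tested member, class E did so in 1 of 4, and the only class C gene was not called. Members were chosen with results of these data known, so the counts describe them and support nothing further.

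**Figure D1:**
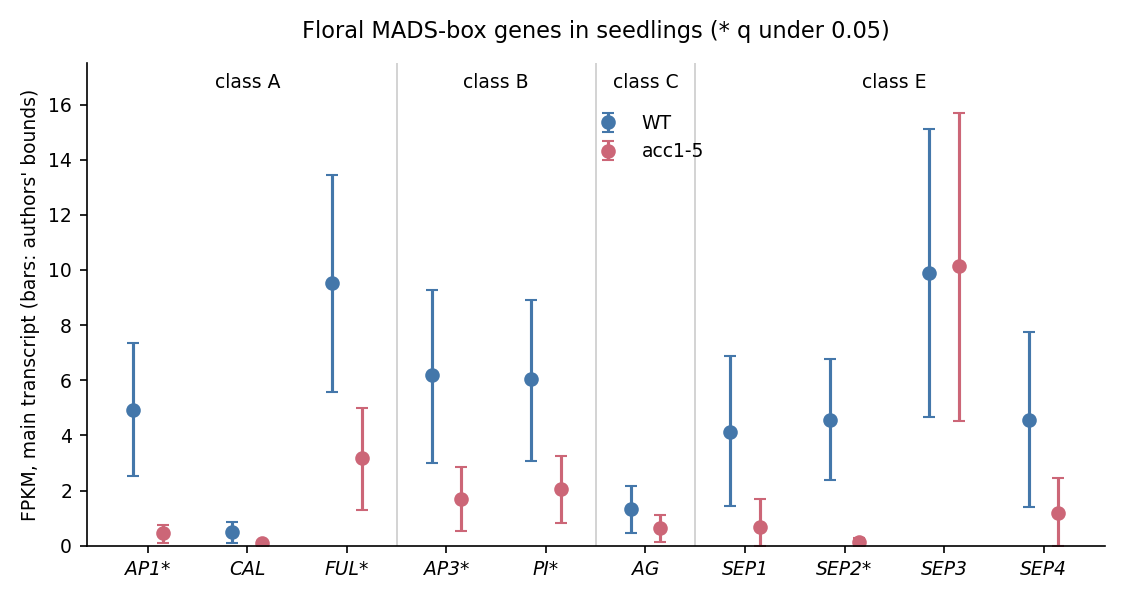
Level of the main transcript of each member in FPKM (vertical axis) in WT (blue) and acc1-5 (red), grouped by class; points are the authors' values, error bars their bounds, and asterisks mark q under 0.05. All points but that of SEP3 are lower in acc1-5, and the bounds of the genotypes are apart for AP1, FUL, AP3 and SEP2.

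AP1 (AT1G69120, chromosome 1, 25982330 to 25986313 on TAIR10), which specifies floral meristems, sepals and petals, was measured at 4.93 FPKM in WT, between bounds of 2.51 and 7.34, and at 0.442 in acc1-5, between 0.111 and 0.738. The bounds do not overlap, and the WT level was 11.2-fold the level in acc1-5. In the authors' deposited table its log2 fold change was -3.48 with q = 7.46e-04. Among all tested genes, 74 had a lower log2 fold change than AP1.

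FUL (AT5G60910, chromosome 5, 24502482 to 24506143) had the highest level of the AP1 clade in both genotypes. It fell from 9.51 FPKM (5.57 to 13.4) to 3.18 (1.30 to 5.01), again with bounds apart, and the authors' deposited table gives a log2 fold change of -1.58 with q = 7.46e-04. FUL stood 1.93 times as high as AP1 in WT and 7.20 times as high in acc1-5. In WT the bounds of the pair overlap, and in acc1-5 they do not. Whether the fold changes of AP1 and FUL differ was not tested, since each genotype has a single value. A second annotated FUL transcript was near 0 in WT and listed at 0 in acc1-5.

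CAL (AT1G26310, chromosome 1, 9100153 to 9103603), the closest relative of AP1, was barely detected. Its level was 0.481 FPKM in WT (0.0873 to 0.873) and 0.0873 in acc1-5 (0 to 0.175), with overlapping bounds and no test in the authors' deposited table. How reads that match both AP1 and CAL were assigned is not given in the sources used here, and the same holds for SEP1 and SEP2, another pair of close copies.

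The bounds give a possible reading of the depth behind these values. For genes with 1 transcript, 93.6% of 21534 bounds between 0.5 and 100 steps lay within 0.01 of a whole number of steps. A step is the FPKM that 1 fragment would give at a common scale of 22.067 M (mega) fragments. That scale was itself set from these bounds, so the share is no independent check of it. The levels themselves do not lie on that grid (1.94% of WT levels within the same tolerance). If a step is 1 fragment, which the sources used here do not state, the AP1 level amounts to 134 fragments in WT and 12.0 in acc1-5, and that of CAL to 11.0 and 2.00. By the same reading SEP2 had 143 and 4.42, so that the acc1-5 levels of SEP2 and CAL rest on a handful of fragments and their fold changes are imprecise.

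The class B genes AP3 and PI, whose proteins work as a pair in petals and stamens, had near-equal levels in both genotypes. AP3 (AT3G54340, chromosome 3, 20119173 to 20121170) had 6.20 FPKM in WT (3.02 to 9.26) and 1.70 in acc1-5 (0.524 to 2.84). PI (AT5G20240, chromosome 5, 6829042 to 6831515) had 6.06 in WT (3.06 to 8.90) and 2.07 in acc1-5 (0.828 to 3.27). The ratio of AP3 to PI was 1.02 in WT and 0.821 in acc1-5, and in both genotypes their bounds overlap. In the authors' deposited table the log2 fold changes were -1.87 for AP3 (q = 7.46e-04) and -1.55 for PI (q = 0.00246). The bounds of AP3 are apart between the genotypes, while those of PI overlap. Apart bounds with a lower level in acc1-5 occurred in 1.63% of all tested genes.

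AG (AT4G18960, chromosome 4, 10382856 to 10388539), the class C gene that specifies stamens and carpels and ends growth of the floral meristem, was low in both genotypes. It had 1.31 FPKM in WT (0.443 to 2.18) and 0.651 in acc1-5 (0.137 to 1.13), with overlapping bounds. The log2 fold change of -1.02 did not pass the test (p = 0.0252, q = 0.119 in the authors' deposited table). Its second annotated transcript was near 0 in both genotypes.

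**Figure D2:**
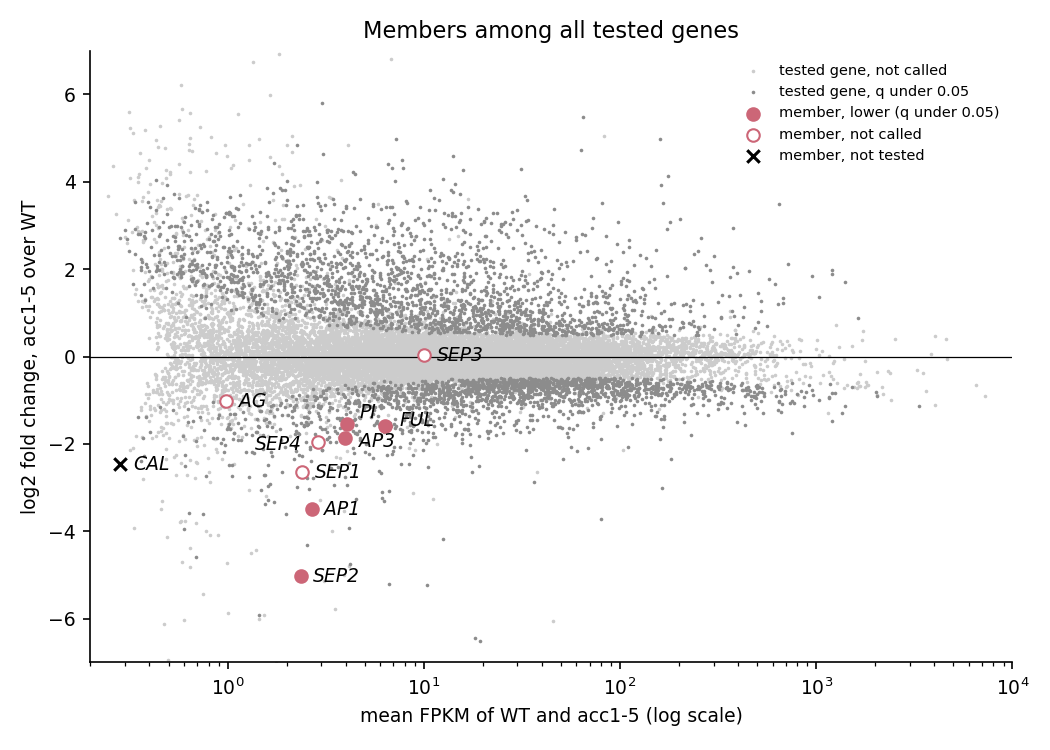
Log2 fold change of acc1-5 over WT (vertical axis) against the mean FPKM of both genotypes (horizontal log axis) for tested genes, called ones in dark grey and others in light grey, with the members in red (filled where lower at q under 0.05) and CAL, which was not tested, as a cross; 65 tested genes beyond 7 on the vertical axis or at 0 in 1 genotype are not drawn. SEP3 lies at 0.04, and the other members lie between -1.02 and -5.01.

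The 4 SEPALLATA genes of class E had the widest range of log2 fold changes, in what is also the largest class. Whether their fold changes differ was not tested. SEP2 (AT3G02310, chromosome 3, 464279 to 467074) had 4.57 FPKM in WT (2.37 to 6.76) and 0.141 in acc1-5 (0 to 0.288), with bounds far apart. In the authors' deposited table it fell by 5.01 on the log2 scale with q = 0.00443. Only 43 tested genes had a lower log2 fold change, and the level in acc1-5 was 3.10% of that in WT. With a pseudocount of 1 FPKM added to both levels the log2 fold change was -2.29.

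SEP3 (AT1G24260, chromosome 1, 8593637 to 8596105), whose protein links the other floral MADS-box proteins into complexes of 4, had close levels in WT and acc1-5. Its main transcript had 9.89 FPKM in WT (4.68 to 15.1) and 10.1 in acc1-5 (4.54 to 15.7), and q was 0.979 in the authors' deposited table. The bounds would still allow a difference of more than 2-fold in either direction. Its other tested transcripts were also close, at 3.69 and 3.63 FPKM for the second and 0.465 and 0.661 for the third, with q of 0.993 and 0.930 in the authors' deposited table. That first transcript made up 70.4% of SEP3 FPKM in WT and 70.3% in acc1-5, so the mix of transcripts was alike. SEP3 stood 2.16 times as high as SEP2 in WT, with overlapping bounds, and 71.7 times as high in acc1-5, with bounds apart.

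SEP1 and SEP4 had lower levels in acc1-5 that did not pass the test. SEP1 (AT5G15800, chromosome 5) had 4.14 FPKM in WT (1.43 to 6.87) and 0.664 in acc1-5 (0 to 1.71). Its log2 fold change was -2.64, with p = 0.0111 and q = 0.0633 in the authors' deposited table. Its locus in the tables, 5148744 to 5154154, also holds AT5G15790. The main transcript of that neighbour had 5.31 FPKM in WT and 4.85 in acc1-5. The labels do not state a strand-specific kit, so reads of genes that overlap may be shared. The SEP1 level stood 0.905 times as high as that of SEP2 in WT and 4.69 times as high in acc1-5, with overlapping bounds in both genotypes.

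SEP4 (AT2G03710, chromosome 2, 1129268 to 1131838) has 3 annotated transcripts, and each was lower in acc1-5. They had 4.57, 1.95 and 0.484 FPKM in WT and 1.18, 0.828 and 0.0416 in acc1-5. None was called, with q of 0.246, 0.511 and 0.492 in the authors' deposited table. For the main SEP4 transcript, the half-distance between the WT bounds came to 69.3% of the level. Over the main transcripts of all members it ran from 41.3% for FUL to 81.7% for CAL. Summed over transcripts, SEP4 had 7.00 FPKM in WT and 2.05 in acc1-5, a 3.42-fold difference that the authors' program did not test as a sum.

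Class E transcripts in acc1-5 were thus mostly those of SEP3. Summed over all transcripts, the 4 genes had 29.8 FPKM in WT, of which SEP3 made up 47.1%, and 17.3 FPKM in acc1-5, of which SEP3 made up 83.5%. The other 3 genes together had 15.8 FPKM in WT and 2.85 in acc1-5. The share of SEP2 was 15.3% in WT and 0.819% in acc1-5, and that of SEP4 was 23.5% and 11.9%.

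**Figure D3:**
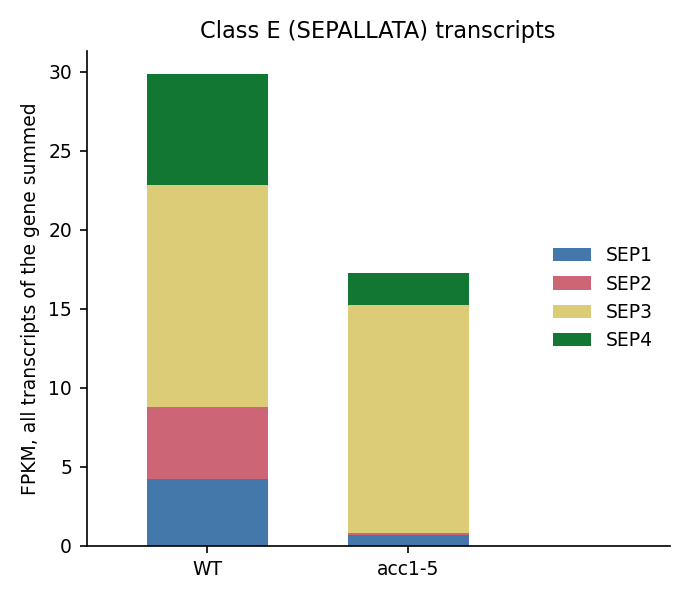
Summed FPKM of all transcripts (vertical axis) of SEP1, SEP2, SEP3 and SEP4, stacked, in WT and acc1-5. The SEP3 segment is 14.04 in WT and 14.43 in acc1-5, and the other segments are smaller in acc1-5.

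Ordered by level in WT, the members ran from SEP3 and FUL through AP3, PI, AP1, SEP4, SEP2 and SEP1 to AG and CAL. Neighbours in that order had overlapping bounds throughout. In acc1-5 the order was SEP3, FUL, PI, AP3, SEP4, SEP1, AG, AP1, SEP2 and CAL, again with overlapping bounds between all neighbours. AP1 moved from the fifth place to the eighth and SEP2 from the seventh to the ninth. All members were modestly expressed: 43.3% of tested genes had a lower WT level than SEP3, 26.9% a lower one than SEP2, and 11.0% a lower one than AG.

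Of the 7 remaining MADS-box genes of floral organs and ovules, 5 were not tested, and neither AGL6 nor SHP2, the tested ones, was called. AGL6, a close relative of the SEP genes, had 0.788 FPKM in WT (0.207 to 1.37) and 0.183 in acc1-5 (0 to 0.332), with p = 0.00840 and q = 0.0510 in the authors' deposited table. The fruit gene SHP1 had 4.81 and 4.97 FPKM and was not tested, as the authors' program marked it as low in data. Its copy SHP2 had 0.626 and 0.894 (q = 0.900 in the authors' deposited table). STK, AGL13, TT16 and GOA, genes of ovules and seeds, lay between 0 and 0.0859 FPKM in both genotypes.

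Of the 28 MADS-box genes of these lists that are not members, 19 were tested, of which 5 fell and 2 rose. For comparison, 9.04% of all tested genes fell and 10.9% rose. SOC1 and AGL24, which fell, and FLC and SVP, which were not called, are counted and described below with the flowering-time regulators. Of the 7 other tested MADS-box genes of flowering time, 3 fell and none rose, and those 3 belong to the FLC clade of floral repressors. MAF5 fell from 4.64 FPKM (2.17 to 7.11) to 0.567 (0.0560 to 1.06) and MAF4 from 2.04 to 0.447, with q of 7.46e-04 and 0.0178 in the authors' deposited table. FLM fell from 24.7 (9.88 to 39.6) to 10.4 FPKM (4.44 to 16.3), with q = 0.0215 in the authors' deposited table, and its transcripts overlap in sequence, so single levels are uncertain. MAF2 had 41.3 and 36.3 FPKM and MAF3 11.4 and 8.03, with q of 0.669 and 0.363 there.

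Of 6 tested MADS-box genes of roots and embryos, 2 rose and none fell, while 10.9% of all tested genes rose and 9.04% fell. XAL1, a root development gene, rose from 2.83 FPKM (1.21 to 4.40) to 7.30 (3.81 to 10.8), and AGL21, a lateral root gene, from 0.428 (0.0634 to 0.761) to 1.72 (0.507 to 2.92), with q of 0.00195 and 0.0338 in the authors' deposited table. All 6 tested genes of that list had a higher level in acc1-5, with a median log2 fold change of 1.01. The root hair and endodermis markers, given above, were higher in the same libraries.

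Regulators that act upstream of the floral MADS-box genes were lower in part. FT, the mobile signal that moves from leaves to the shoot apex and there switches on AP1 and FUL together with FD, fell from 15.0 FPKM (7.84 to 21.3) to 4.53 (1.91 to 7.10). SOC1, a MADS-box integrator of flowering signals, fell from 50.5 (32.2 to 68.6) to 16.5 (10.0 to 22.7). For both the bounds are apart, and q was 7.46e-04 in the authors' deposited table.

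Of 20 tested flowering-time regulators, 8 fell, 2 rose and 10 were not called, with a median log2 fold change of -0.74. The shares among all tested genes were 9.04% that fell and 10.9% that rose. FD, the partner of FT, fell from 9.90 (5.77 to 14.03) to 4.75 FPKM (2.50 to 6.98), and AGL24, a MADS-box partner of SOC1, from 39.0 (23.5 to 51.8) to 25.7 (15.1 to 35.1), with q of 0.00246 and 0.0224 in the authors' deposited table. SPL factors promote flowering and switch on floral genes. SPL3 fell from 29.7 (19.5 to 39.8) to 8.44 FPKM (4.64 to 12.2), SPL9 from 7.76 to 2.96 and SPL15 from 2.97 to 0.793, all with q = 7.46e-04 in the authors' deposited table. SPL4 and SPL5 had 8.63 and 6.67 FPKM in WT and 4.68 and 1.48 in acc1-5, and were not called (q = 0.0649 and 0.179 in the authors' deposited table).

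Repressors of flowering did not move one way. SMZ and TOE2, AP2-like repressors of FT, rose, SMZ from 3.15 FPKM (1.30 to 4.97) to 7.47 (4.08 to 10.8) and TOE2 from 6.38 (3.39 to 9.38) to 13.6 (7.94 to 19.3), with q of 0.00528 and 0.00246 in the authors' deposited table. TFL1, which keeps the inflorescence meristem from forming a flower, fell from 4.47 (1.63 to 7.18) to 1.17 (0.271 to 2.03), with q = 0.00443 in the authors' deposited table. The repressor FLC had 1.83 FPKM in WT (0.563 to 3.13) and 0.335 in acc1-5 (0 to 0.631), and SVP, a MADS-box repressor, had 76.7 and 62.1, with q of 0.526 and 0.317 in the authors' deposited table.

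Among 17 floral regulators outside the MADS family, 11 were tested, of which 1 fell and 1 rose, with a median log2 fold change of -0.13. Over all tested genes, 9.04% fell and 10.9% rose. The gene that rose was AP2, a class A gene of another protein family, from 12.8 FPKM (8.37 to 17.3) to 19.7 (13.2 to 26.2), and the gene that fell was NAP, a NAC factor of senescence that AP3 and PI activate, from 82.5 (50.3 to 109) to 46.7 (28.3 to 62.2). Their q-values were 0.0172 and 7.46e-04 in the authors' deposited table. Bounds of AP2 overlap between the genotypes, as do those of NAP. LFY, the main activator of AP1 and of class B and C genes, had 0.712 FPKM in WT (0.215 to 1.18) and 0.230 in acc1-5 (0 to 0.431), and did not pass (p = 0.0225, q = 0.110 in the authors' deposited table). The carpel gene CRC had 1.70 FPKM in WT (0.582 to 2.77) and 0.0997 in acc1-5 (0 to 0.194), with bounds apart and q = 0.0617 in the authors' deposited table. UFO, which works with LFY on AP3, was not tested at 0.244 and 0.153 FPKM.

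**Figure D4:**
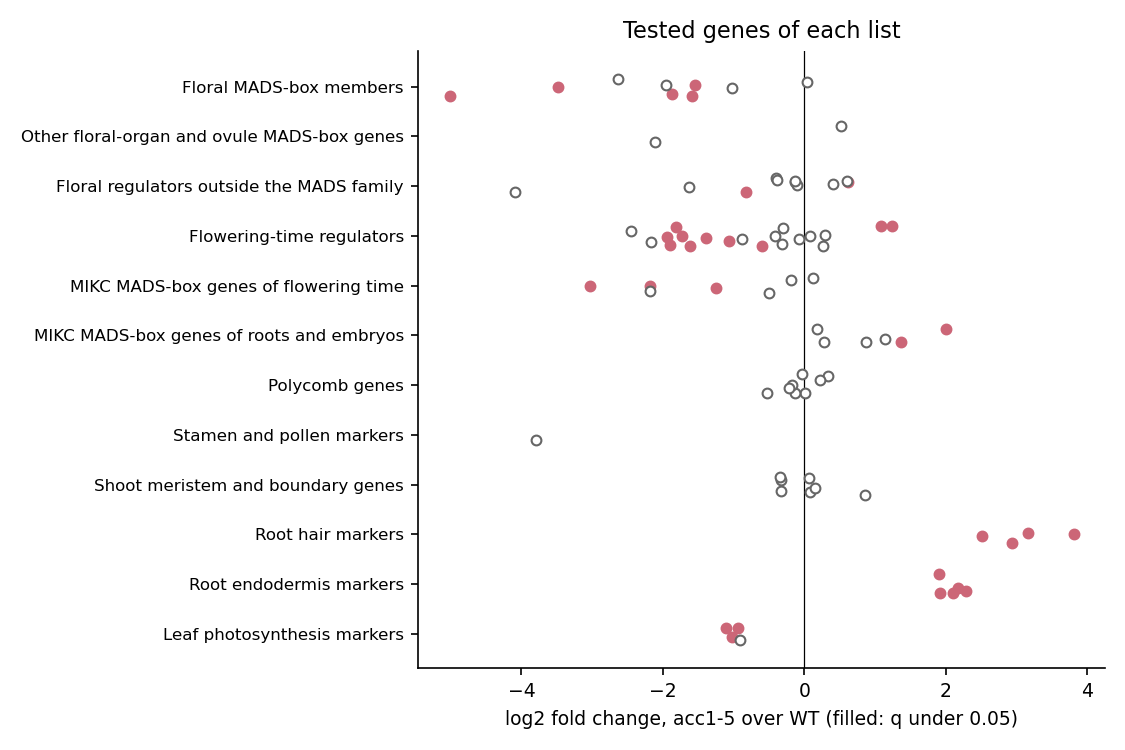
Log2 fold change of acc1-5 over WT (horizontal axis) for each tested gene of the 10 members (top row) and of 11 related lists, filled where q was under 0.05; vertical scatter within a row only separates points, and 1 stamen gene listed at 0 in acc1-5 is not drawn. Filled points lie left of 0 for the floral members and right of 0 for both root marker lists, while no gene of the Polycomb and shoot meristem lists is filled.

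Transcripts of the shoot meristem and of Polycomb components were not called, while 9.04% of all tested genes fell and 10.9% rose. In lists this small, a count of 0 does not set them apart from other genes. Of 7 tested genes of the shoot meristem and organ boundaries, 0 were called by the authors' Cuffdiff test (1 had an unadjusted p under 0.05), 3 had a lower level in acc1-5, and the median log2 fold change was 0.06. STM, which maintains the shoot meristem, had 11.1 FPKM in WT and 11.8 in acc1-5. Of 8 Polycomb genes, 0 were called by the same test, with a median of -0.08, and the 1 with an unadjusted p under 0.05 was VRN2, at 18.6 FPKM in WT and 12.9 in acc1-5. CLF, a histone methyltransferase that represses AG in leaves, had 7.75 FPKM in WT (5.16 to 10.3) and 9.80 in acc1-5 (6.63 to 13.0), and its relative SWN had 25.0 and 25.2, with q of 0.308 and 0.991 in the authors' deposited table. Chromatin libraries of the series were not analysed here, so nothing can be said of histone marks at the floral genes.

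Of 9 markers of developing stamens and pollen, 7 had under 1 FPKM in WT and all 9 did in acc1-5. Among the 9, 7 were not tested, and 4 were listed at 0 in WT and 4 in acc1-5. The sum of the 9 was 3.87 FPKM in WT and 0.323 in acc1-5, and most of the WT sum came from AT5G07230 and AMS. Of the untested markers, MS1, MYB21 and MYB24 were at 0 in WT and at 0.0144, 0.0987 and 0.0943 FPKM in acc1-5. DYT1, MYB103 and MYB57 had lower levels in acc1-5, and ATA7 was at 0 in both genotypes. The 1 that fell, AT5G07230, had 2.48 FPKM in WT (0.431 to 4.48) and was listed at 0 in acc1-5, where the authors' deposited table gives q = 7.46e-04. The tapetum regulator AMS had 1.06 FPKM in WT (0 to 3.83) and 0.0765 in acc1-5 (0 to 0.407), and was not called.

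The genes nearest to SEP2 and AP1 in level were sought among 20450 tested genes outside the members with levels above 0 in both genotypes. Genes listed at 0 in acc1-5 were thus left out. Likeness was the distance between points of log2 FPKM in WT and in acc1-5, so it rests on 2 values a gene. The 5 nearest to AP1 were AT3G27990, AT1G02620, MAF5, AT2G40920 and AT4G16270, at distances of 0.330, 0.362, 0.370, 0.403 and 0.582. Of these AT1G02620, MAF5 and AT4G16270 were called lower, with q of 0.00888, 7.46e-04 and 7.46e-04 in the authors' deposited table, while AT3G27990 (q = 0.251) and AT2G40920 (q = 0.153) were not called. AT3G27990 had 5.35 FPKM in WT and 0.548 in acc1-5. The 5 nearest to SEP2 were AT3G52130, AT5G62080, AT3G16750, AT5G56370 and AT3G07450, at distances of 0.485 to 0.927. Only AT3G16750 of these was called. It had 4.85 and 0.245 FPKM in WT and acc1-5, with q = 0.00299 in the authors' deposited table, and q of the other 4 lay between 0.123 and 0.740 there.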

How the data were processed

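For the RNA libraries, the submitters' processing notes name Bowtie, TopHat 1.4.0, Cufflinks 2.1.1, Cuffdiff 2.1.1 and the TAIR10 build. The authors deposited levels as FPKM with bounds, 1 value per genotype, and a comparison with a log2 fold change, a test statistic (a score, not used here), a p-value and a q-value, per the file headers. What confidence the bounds stand for, and how libraries were pooled, is not given in the sources used here. Columns named ACC1 were read as acc1-5. The 42 chromatin and input libraries were not analysed here.

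Of 42818 transcripts, 25307 were tested; the 10 members have 17 transcripts, of which 13 were tested. A gene was called at q under 0.05, adjusted by the authors over all tested transcripts. Their smallest p-value, 5e-05, was shared by 1697 tested transcripts, 3 of them of members. For 6 tested transcripts, none of a gene named here, the deposited fold change did not match the levels. Starts were raised by 1 to count from 1. Symbols were matched to RefSeq by locus tag, 110 of 111 (not AT5G07230). Tools were Python 3.11.15, pandas 2.3.3 and numpy 2.4.6, and the adjustment and the step search were tested on simulated data.

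The 10 members and the 11 lists were chosen with earlier results of these data known. Named were all members, up to 6 called genes of a list by size of change (leaf and root markers are given as sums), LFY, AP2, SOC1, FT, FLC, SVP, TFL1, CLF, SWN and the other floral-organ MADS-box genes, and the 5 genes nearest in level to SEP2 and AP1; genes outside this rule were chosen after their values were seen.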

Additional observations from a re-analysis of the deposited data

How the results depend on the processing

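The count of 5 members that fell was also 5 with q under 0.01, with p-values adjusted over transcripts with a mean FPKM of at least 1, with a 2-fold minimum and with any tested transcript of a gene, with the same members (AP1, FUL, SEP2, AP3 and PI) each time. It was 4, without PI, where the authors' bounds had to be apart. With a Bonferroni adjustment it was 0 for members and 0 for flowering-time regulators, since 5e-05, the lowest p their program reports, cannot pass after multiplication by 25307. An alternative chosen after seeing the data, a summed FPKM at least 2-fold lower whether tested or not, gave 9 members, all but SEP3. Those include CAL, which was not tested, and SEP1, SEP4 and AG, which were not called. AG was just over the cut, at 2.02-fold. The share of all genes that meet this cut was not computed, so the count has nothing to be set against. The 8 flowering-time regulators that fell were 5 where bounds had to be apart. The median log2 fold change of all 10 members, -1.91, was -1.34 with a pseudocount of 1 FPKM and -1.72 with 0.1, which shrink the change of low genes; that of SEP2 was -5.01, -2.29 and -4.27 in the same order. The direction of the called members is no check here, since neither a pseudocount added to both levels nor another cut can change it. No paired analysis was possible because the tables hold 1 value per genotype, so neither could single libraries be left out. Low levels limit CAL, SEP2 and AG.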
